A study of Homo sapiens with 6 samples.

Results

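The genes of the cytosolic ribosomal proteins were taken from the count table by symbol: RPL or RPS followed by a number and at most an A, X, Y or L and a further digit, together with RPLP0, RPLP1, RPLP2 and RPSA. The rule found 83 of 19201 entries, 51 of the large subunit and 32 of the small subunit, and used no measured value. Ribosomal protein S6 kinase genes and pseudogenes were not included. Total RNA had been sequenced from H1299, a widely used line grown from a human lung tumour of the non-small cell type, in 3 control libraries with a wild-type genotype and 3 libraries of cells that overexpress lncBCAS1-4_1, a long non-coding RNA. No empty vector is named and no clone is given for either group, so the RNA and the procedure used to overexpress it cannot be told apart. They do not say that replicates came from separate cultures, and p-values therefore measure only the spread between these libraries, which may be technical.

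The ribosome joins a small subunit, which reads the mRNA, to a large subunit, which forms the peptide bond. Each subunit is built in the nucleolus from ribosomal RNA and its proteins. The mRNAs of these proteins are among the most abundant in a dividing cell. Most start with a C and a run of pyrimidines, the 5' terminal oligopyrimidine (TOP) motif, through which growth signals via mTOR and the RNA-binding protein LARP1 control their translation and stability.

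Total counts ran from 84531039 to 92780032 per library. CYP24A1, the vitamin D hydroxylase named in the series title, had 57 to 81 counts in the controls and 212102 to 299348 in the overexpressing libraries, which separates the groups as labelled; lncBCAS1-4_1 itself was not analysed here. Of the listed epithelial markers KRT7, KRT8, KRT18 and KRT19 were in the table and summed to 1261 to 1890 CPM (counts per 1000000, by TMM-scaled library size). Endothelial and fibroblast markers summed to at most 2.47 CPM.

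The start sites are shown for the members whose rises and falls are described first, for a trio that forms one structure, and for parent genes beside their second copies, because the pyrimidine start is what most of the family shares in sequence. RefSeq start sites (GRCh38.p14) were found for 66 of the 83 members. RPS2, RPL3L and RPL39L, on other chromosomes, also had no start in the set used, which does not mean that none is known. Each line gives 15 bases before the start and the first 15 transcribed bases, 5' to 3' on the gene's strand, with the pyrimidine run that begins at the first transcribed base in capitals.
RPS9 (chr19:54200843-54200872, plus strand): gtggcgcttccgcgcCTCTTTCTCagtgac
RPLP0 (chr12:120201097-120201126, minus strand): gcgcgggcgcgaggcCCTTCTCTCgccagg
RPL18 (chr19:48619164-48619193, minus strand): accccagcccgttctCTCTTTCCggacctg
RPLP1 (chr15:69452803-69452832, plus strand): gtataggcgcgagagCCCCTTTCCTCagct
RPLP2 (chr11:809952-809981, plus strand): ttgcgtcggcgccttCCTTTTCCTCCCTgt
RPS6 (chr9:19380222-19380251, minus strand): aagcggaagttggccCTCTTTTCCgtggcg
RPL7L1 (chr6:42879601-42879630, plus strand): cggaagtgcggcgccgtagctaggagcgga
RPS27 (chr1:153990747-153990776, plus strand): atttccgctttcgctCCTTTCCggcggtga
RPS27L (chr15:63157463-63157492, minus strand): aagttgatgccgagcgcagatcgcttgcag
RPL22 (chr1:6199581-6199610, minus strand): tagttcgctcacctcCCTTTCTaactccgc
RPL22L1 (chr3:170870181-170870210, minus strand): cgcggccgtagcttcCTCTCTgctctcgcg
The windows of RPS9, RPLP0, RPL18, RPLP1, RPLP2, RPS6, RPS27, RPL22 and RPL22L1 hold such a run. In RPL7L1 and RPS27L the first transcribed base is a purine. A start on C followed by at least 4 more pyrimidines was present at 1 or more of the listed starts in 47 of the 66 members (71.2%), in 29 of 41 of the large and 18 of 25 of the small subunit. The share was 6.97% of 12396 tested entries with a start and 5.14% of all 27305 genes with a start. It was 8.7% of 69 mitochondrial ribosomal protein genes. The letters CTTTCC, sought on both strands of the 30 bases, occurred in 30.3% of the members and in 3.81% of the tested entries. A match in such a window describes its letters and does not show a binding site. Of the 47 members with a pyrimidine start, 33 were higher and 1 was lower in the overexpressing cells by the test described below. Of the 19 without one, 12 were higher and 1 lower. These stand beside 18.3% higher and 19.7% lower of all entries tested, and 45.7% and 23.1% of entries with a mean of at least 100 CPM. After the GC and length correction described below, 22 of the 47 were higher and 3 lower, and 7 of the 19 higher and 0 lower. Of the entries with at least 100 CPM, 27.3% were then higher and 21.6% lower.

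The ribosomal protein mRNAs together took a larger part of the overexpressing libraries. Their share of all counts was 6.34%, 6.20% and 6.47% in the 3 control libraries and 7.28%, 6.93% and 6.89% in the 3 with overexpression. The large subunit genes summed to 37670, 36669 and 38519 CPM in the controls and to 45044, 42004 and 41358 CPM in the overexpressing libraries. Means were 37619 ± 926 and 42802 ± 1968 CPM (SD, n = 3 each), a 1.14-fold difference. The small subunit genes summed to 24480, 24077 and 25386 CPM in the controls and to 30527, 28242 and 27647 CPM with overexpression. Their means were 24648 ± 670 and 28805 ± 1520 CPM (SD, n = 3 each), a 1.17-fold difference. Every overexpressing library was above every control for both subunits, and the exact two-sided permutation test gave p = 0.1 for each, the smallest that 3 against 3 allows. The ratio of the large to the small sum was 1.539, 1.523 and 1.517 in the controls and 1.476, 1.487 and 1.496 in the overexpressing libraries. This ratio was lower in every overexpressing library (1.53 ± 0.011 against 1.49 ± 0.010, SD, n = 3 each, exact permutation p = 0.1). In bulk RNA a larger share of these mRNAs and a smaller amount of other RNA per cell cannot be told apart.

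**Figure D1:**
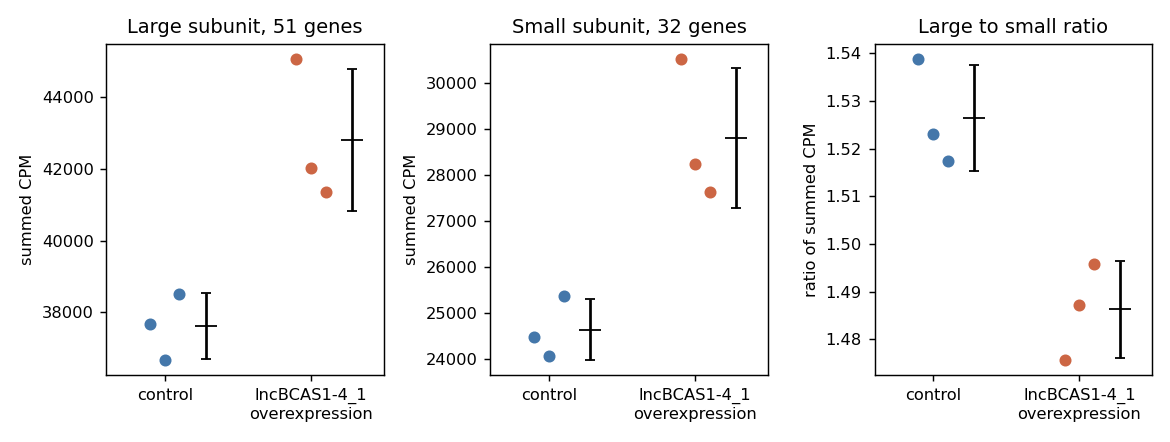
Summed CPM of the 51 large and 32 small subunit genes and the ratio of both sums, 1 point per library, with bars for the mean and SD of 3 libraries; the axes do not start at 0. The overexpressing libraries lie above all controls for both subunits, from 41358 to 45044 and from 27647 to 30527 CPM, and below them for the ratio.

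Overexpressing library 1 was the highest of its group for 81 of the 83 members, against 1165 of 2242 entries with a mean of at least 100 CPM. Without it the log2 difference of the sums was 0.15 for the large and 0.18 for the small subunit, beside 0.19 and 0.22 with all libraries. Control library 3 was the highest of the controls for 61 members and for 1243 of those 2242 entries. Per gene the spread was small: the median coefficient of variation in the large subunit was 3.63% over the controls and 4.71% over the overexpressing libraries, and in the small subunit 3.38% and 5.62%.

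Gene by gene, 53 of the 83 members were called higher with overexpression and 2 were called lower, at a threshold of 0.05 on the adjusted p (edgeR's quasi-likelihood test, Benjamini-Hochberg over 19101 entries). All 83 members passed the filter on low counts. In the large subunit 32 were higher, 1 was lower and 18 did not pass the test, with a median log2 fold change of 0.16. In the small subunit 21 were higher, 1 was lower and 10 did not pass, with a median of 0.23. Over all entries tested 18.3% were higher and 19.7% lower, with a median of -0.0041. The better matched background is that of abundant entries, since 77 of the members and 2242 of all entries had a mean of at least 100 CPM: there 45.7% were higher and 23.1% lower, with a median of 0.11. Every member but RPL3L differed by less than 1.5-fold. In 63 members the 3 overexpressing libraries were all above the controls, in 5 (RPL5, RPL7L1, RPL11, RPL22 and RPS6) all below, and in 15 the groups overlapped. The groups did not overlap in 24.7% of all entries on the higher side and in 26% on the lower side, and in 51.1% and 27.5% of abundant entries. With library size alone in place of TMM scaling, 23 large and 19 small subunit genes were higher and 5 and 1 were lower.

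**Figure D2:**
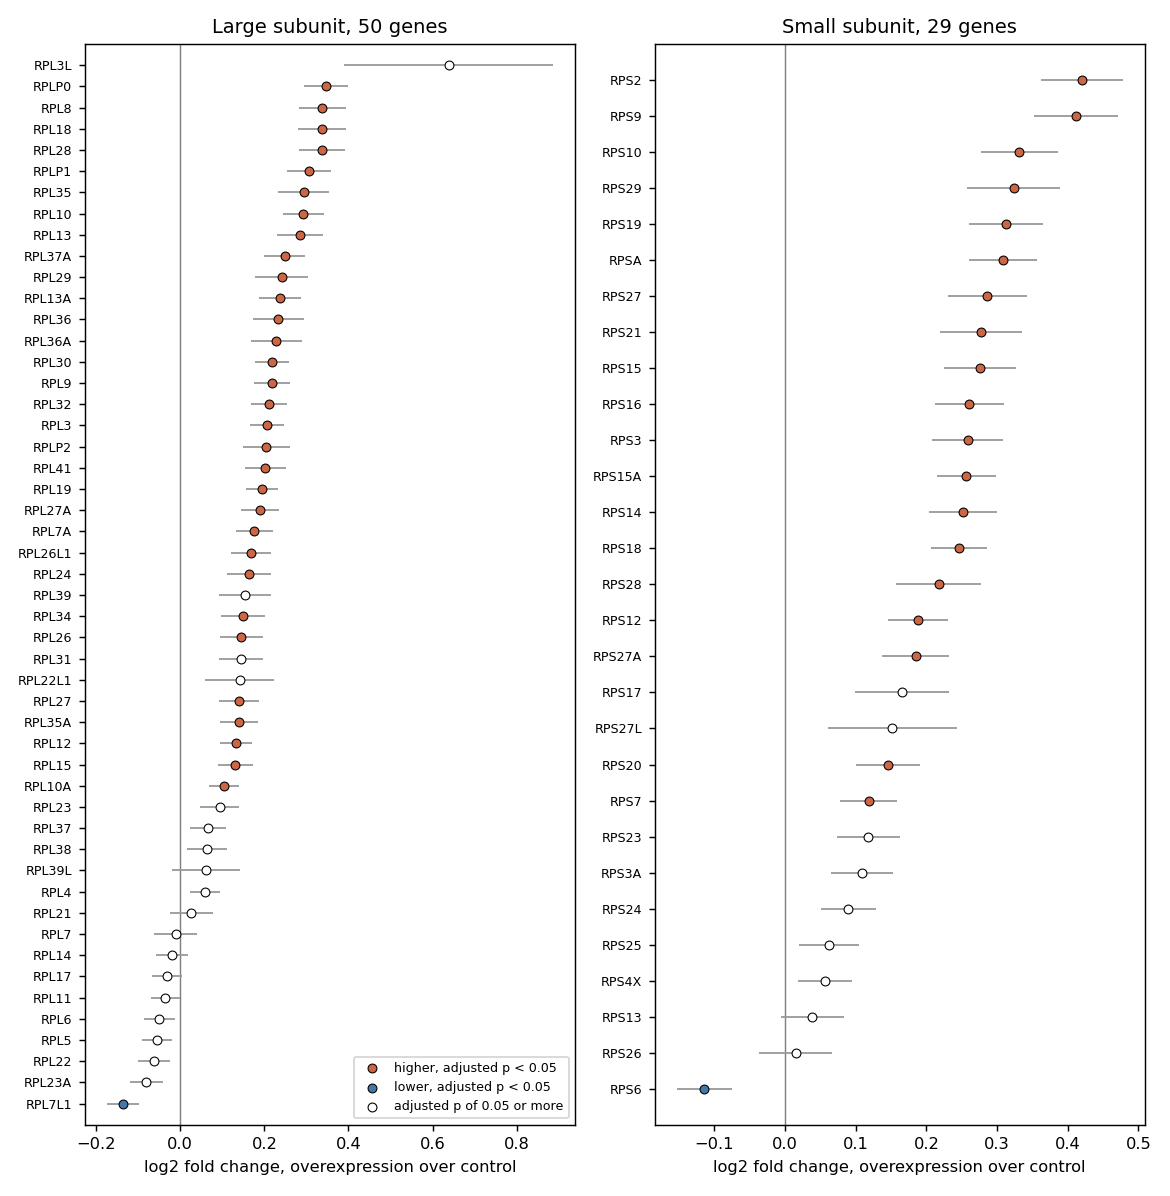
Log2 fold change with its SE of 50 large and 29 small subunit genes, ordered by size and filled where the adjusted p was under 0.05. Most members lie between 0 and 0.4, RPL7L1 and RPS6 are the only members called lower, and RPL3L has the widest error.

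The largest rise past the test was in the small subunit. RPS2, a protein of the mRNA entry channel, measured 2128, 2102 and 2258 CPM in the controls and 3150, 2807 and 2721 CPM with overexpression. That is a 1.34-fold difference (log2 fold change 0.42, SE 0.058, edgeR adjusted p = 0.00068). RPS9, which binds the small subunit rRNA early in assembly, had means of 633 ± 28.1 and 843 ± 65.0 CPM (SD, n = 3 each) and was 1.33-fold higher (adjusted p = 8e-04, edgeR). RPS10 and RPS29 were 1.26- and 1.25-fold higher (edgeR adjusted p = 0.0015 and 0.0044). All 3 overexpressing libraries were above the controls for each of these 4 genes.

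In the large subunit RPLP0 rose 1.27-fold, and RPL8, RPL18 and RPL28 each 1.26-fold. RPL8, which lies close to the peptidyl transferase centre, was at 1923 ± 79.6 and 2430 ± 171 CPM (SD, n = 3 each). No overexpressing library overlapped a control in any of these 4 genes.

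The P stalk recruits the GTPases of translation to the large subunit, with RPLP0 as its base and RPLP1 and RPLP2 as the acidic proteins bound to it. All 3 genes rose. RPLP0 measured 2925, 2839 and 3060 CPM in the controls and 4007, 3667 and 3541 CPM with overexpression (adjusted p = 0.001, edgeR). RPLP1 measured 843, 797 and 876 CPM in the controls and 1106, 999 and 1004 CPM with overexpression, 1.24-fold higher (adjusted p = 0.0019, edgeR). RPLP2 measured 292, 298 and 310 CPM against 375, 331 and 331 CPM, 1.15-fold higher (adjusted p = 0.016, edgeR). RPLP2 lost its call when control 1 (adjusted p = 0.068) or control 2 (0.06) was left out. The RPLP2 counts per 100 RPLP0 counts were 10.2 ± 0.258 in the controls and 9.25 ± 0.194 in the overexpressing libraries (SD, n = 3 each), without overlap (exact permutation p = 0.1, two-sided). For RPLP1 the ratio to RPLP0 was 28.5 ± 0.390 against 27.7 ± 0.572 (SD, n = 3 each), which overlapped (exact permutation p = 0.2). Both acidic proteins bind RPLP0 as dimers, and their mRNA ratios are given here only as counts.

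RPL5 and RPL11 enter the large subunit together with the 5S rRNA, and the same particle binds MDM2 when assembly is disturbed. Neither passed the test. RPL5 measured 1044, 1022 and 1041 CPM in the controls and 1013, 988 and 989 CPM with overexpression (log2 fold change -0.055, SE 0.035, edgeR adjusted p = 0.25). RPL11 measured 552, 537 and 538 CPM against 532, 526 and 528 CPM (log2 fold change -0.036, edgeR adjusted p = 0.48). In both genes the overexpressing libraries were all below the controls, at a fold of 0.962 and 0.976, while the sum of their subunit was higher. The counts of RPL5 per 100 of RPL11 were 191 ± 2.22 and 189 ± 1.64 (SD, n = 3 each, exact permutation p = 0.3).

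RPS6, the small subunit protein that S6 kinase phosphorylates, was the only member of its subunit called lower. It measured 1109, 1061 and 1053 CPM in the controls and 990, 1016 and 971 CPM with overexpression (log2 fold change -0.11, SE 0.039, edgeR adjusted p = 0.044). This call was lost when any one of the 6 libraries was left out, with adjusted p from 0.058 to 0.19. RPS27A, made as a fusion with ubiquitin, was 1.14-fold higher (615 ± 9.65 against 699 ± 41.7 CPM, SD, n = 3 each, adjusted p = 0.013, edgeR; 0.063 without control 2). RPSA, the laminin receptor precursor at the mRNA exit side, was 1.24-fold higher, at 1933, 1876 and 2019 CPM against 2550, 2359 and 2307 CPM (adjusted p = 0.0012, edgeR).

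**Figure D3:**
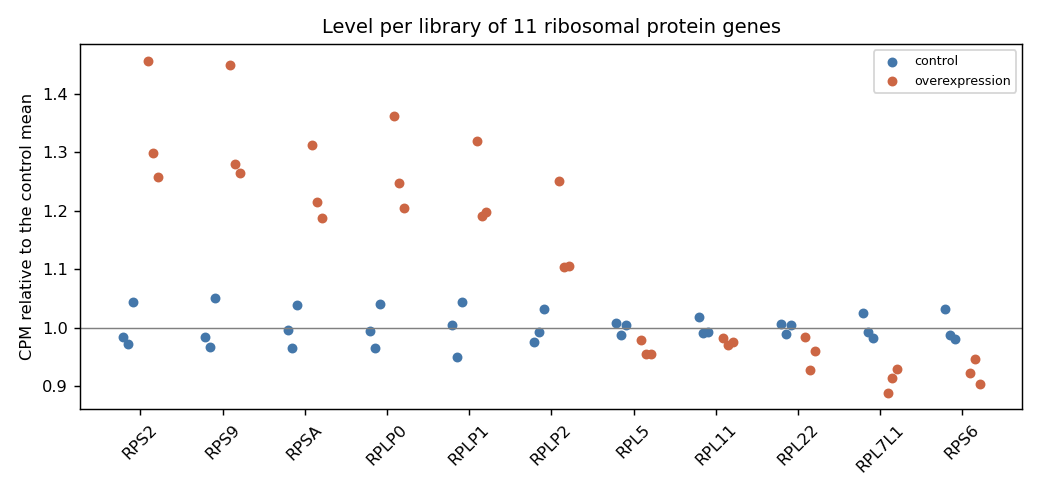
CPM of 11 members in each library divided by the control mean of that gene, so that 1 is the mean of the controls. RPS2, RPS9, RPSA, RPLP0, RPLP1 and RPLP2 lie above all controls in all 3 overexpressing libraries, and RPL5, RPL11, RPL22, RPL7L1 and RPS6 lie below them.

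Of 8 proteins that line the mRNA channel and the decoding site of the small subunit, 6 were higher (RPS2, RPS3, RPS9, RPS14, RPS15 and RPS28), none was lower, and RPS23 and RPS26 did not pass. Of 9 proteins at the rim of the exit tunnel of the large subunit, 3 were higher (RPL19, RPL26 and RPL35) and 6 did not pass. Of 16 genes whose mutation causes Diamond-Blackfan anaemia, a failure of red cell production, 11 were higher and none was lower. These shares stand beside 45.7% for abundant entries.

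The 6 paralogue copies, which can take the place of their parent in some tissues or act in assembly, gave 1 rise (RPL26L1), 1 fall (RPL7L1) and 4 that did not pass the test. RPL7L1, a nucleolar relative of RPL7, was the only large subunit member called lower. It measured 327, 317 and 314 CPM in the controls and 284, 292 and 297 CPM with overexpression (log2 fold change -0.14, SE 0.038, edgeR adjusted p = 0.021). Leaving out control 1, control 2, overexpressing library 1 or overexpressing library 2 raised that p to 0.097, 0.066, 0.054 and 0.057. RPL7 itself measured 1362 ± 72.1 and 1352 ± 63.6 CPM (SD, n = 3 each) with overlapping groups. RPL7L1 counts per 100 RPL7 counts were 23.5 ± 0.765 in the controls and 21.6 ± 1.39 in the overexpressing libraries (SD, n = 3 each), without overlap (exact permutation p = 0.1).

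RPL22L1 measured 19.6, 17.5 and 17.6 CPM in the controls and 20.9, 19.1 and 20.3 CPM with overexpression, which overlapped (edgeR adjusted p = 0.22). Its parent RPL22 measured 353, 347 and 352 CPM against 346, 326 and 337 CPM (edgeR adjusted p = 0.24; log2 fold change -0.11 and adjusted p = 0.028 with library size alone). RPL22L1 counts per 100 RPL22 counts were 5.19 ± 0.317 and 5.98 ± 0.0974 (SD, n = 3 each), without overlap and at the smallest p the exact permutation test allows, 0.1. RPL26L1 rose 1.12-fold (69.3 ± 2.84 against 77.9 ± 2.08 CPM, SD, n = 3 each, adjusted p = 0.02, edgeR) beside RPL26 at 1.11-fold (adjusted p = 0.047, edgeR), and their ratio overlapped between groups. RPL26 lost its call without control 1, control 2, overexpressing library 1 or overexpressing library 2, with adjusted p from 0.068 to 0.17. RPL26L1 lost its call without control 2 (0.093) or overexpressing library 1 (0.07).

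RPS27L, a copy of RPS27 known as a p53 target, measured 15.7, 14.4 and 16.2 CPM in the controls and 18.6, 16.2 and 16.7 CPM with overexpression (edgeR adjusted p = 0.23). RPS27 rose 1.22-fold from 151 ± 7.17 to 184 ± 11.3 CPM (SD, n = 3 each, adjusted p = 0.0034, edgeR). The copy's counts per 100 RPS27 counts were 10.3 ± 0.329 and 9.36 ± 0.447 (SD, n = 3 each), without overlap (exact permutation p = 0.1). RPL3L, the form of striated muscle, was barely present, at 0.505, 0.560 and 0.512 CPM against 0.830, 0.827 and 0.801 CPM, and its 1.56-fold difference did not pass (edgeR adjusted p = 0.072). RPL3 measured 2082 ± 39.4 and 2402 ± 101 CPM (SD, n = 3 each), 1.15-fold higher (adjusted p = 0.0039, edgeR). RPL39L, known from the testis, overlapped between groups at 30.9 ± 2.88 and 32.2 ± 1.75 CPM (SD, n = 3 each). RPL39 measured 150, 135 and 153 CPM in the controls and 174, 158 and 156 CPM with overexpression (edgeR adjusted p = 0.08).

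Levels can be compared between genes only per length of transcript. By CPM per kilobase of the GENCODE canonical transcript, averaged over all libraries, RPLP0 (3022) was the highest of the large subunit, and RPL8 reached 2034. RPS20 (2894), RPS2 (2675) and RPS16 (2497) were the highest of the small subunit. The lowest were RPL3L (0.313) and RPS27L (2.67). Canonical transcripts of 20 members are longer than 2000 bases, such as that of RPL37 at 7573 bases, which lowers their level per kilobase.

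The fold changes followed base composition. GC content of the members' canonical transcripts ran from 39.9% to 63.6%, and its Spearman correlation with the log2 fold change was 0.61 over the 83 members, given as a description since they share libraries. It was 0.66 over 2240 abundant entries. Of 31 members with a GC content of 50% or more, 28 were higher and none was lower, beside 67.4% and 4.35% of 1287 abundant entries in that range. Of 52 members under 50%, 25 were higher and 2 lower, beside 16.3% and 48.4% of 953 abundant entries. All 11 small subunit genes of 50% or more were higher. The 12 members on chromosome 19, a GC-rich chromosome, RPL18, RPL28, RPL36, RPS9 and RPS16 among them, were all higher, beside 72.3% higher and 5.22% lower of 249 abundant entries on that chromosome. After the correction described next, 1 of the 12 was higher and 1 lower, beside 16.1% and 27.7%. The part of base composition in the rises was not tested.

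**Figure D4:**
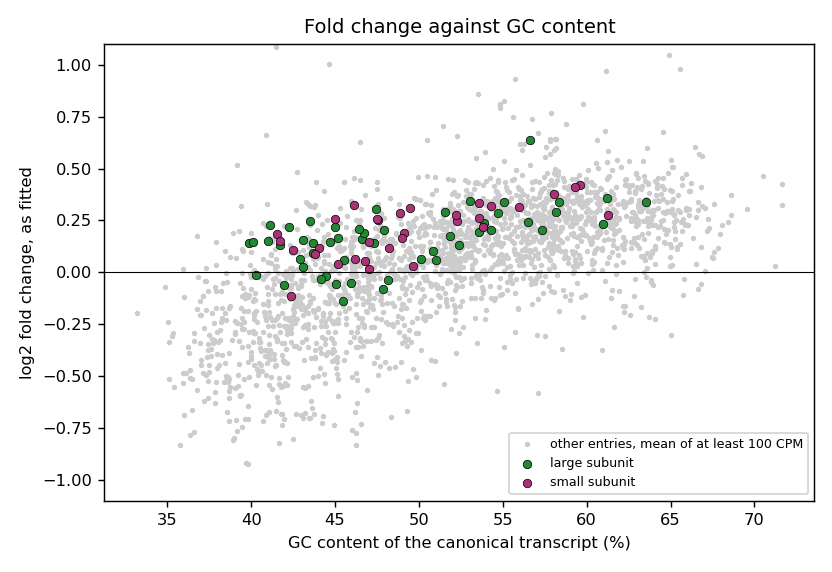
Log2 fold change as fitted against GC content of the canonical transcript, with members in colour over the other entries with a mean of at least 100 CPM in grey; 5 grey entries beyond 1.1 on either side are not shown. Members under 50% GC lie mostly in the upper part of the grey cloud, and members of 50% or more lie within it.

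After each library's trend with GC content and transcript length over all entries had been removed, fewer members were called and others appeared. In the large subunit 23 were higher and 4 lower, with a median of 0.11. Those 4 became 2 without control 1, control 2, control 3 or overexpressing library 2. In the small subunit 11 were higher and 1 lower, with a median of 0.064, and the 1 became 0 without control 2 or overexpressing library 2. Among abundant entries 27.3% were higher and 21.6% lower after the same correction, and among all entries 11.5% and 11.1%. The mRNA channel list went from 6 to 3 higher of 8, the exit tunnel list from 3 to 4 higher with 1 lower of 9, and the Diamond-Blackfan list from 11 to 5 higher with 1 lower of 16. RPS2, RPS9, RPL8 and RPL18 were no longer called, with corrected log2 fold changes of 0.076, 0.067, -0.025 and 0.0044. RPLP0, RPLP1, RPSA and RPS27A stayed higher, at 0.12, 0.24, 0.18 and 0.32 (edgeR adjusted p = 0.039, 0.0044, 0.0078 and 0.0016). RPL36 and RPLP2 turned from higher to lower, at -0.12 and -0.11 (edgeR adjusted p = 0.041 and 0.049), and RPL11 and RPL23A were called lower. With GC content alone in the correction, RPL36 and RPLP2 were not called (edgeR adjusted p = 0.62 and 0.78). By GC content and length of the coding sequence they were not called either (0.12 and 0.47, edgeR). When the trend was fitted without the members, RPL36 stayed lower (edgeR adjusted p = 0.045) and RPLP2 was not called (0.057). The uncorrected rise of RPL36 (1.18-fold, edgeR adjusted p = 0.013) had an adjusted p of 0.055 without control 1 and of 0.06 without control 2. RPL7L1 and RPS6 were not called, at 0.024 and 0.010.

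A further 12 members were called higher only after the correction (RPL4, RPL7, RPL14, RPL22L1, RPL23, RPL31, RPL37, RPL39, RPS3A, RPS23, RPS24 and RPS27L). Of the 20 members with canonical transcripts over 2000 bases, 15 were higher after the correction. With GC content and length of the coding sequence in place of the transcript, 6 of those 20 were higher, and the counts were 19 higher and none lower in the large and 16 higher and 2 lower in the small subunit. The coding-sequence fit called 13.7% of all entries higher and 12.9% lower, and 34.6% and 20.9% of abundant entries. With GC content alone 29 large and 24 small subunit genes were higher and none was lower, beside 13.4% and 12.9% of all and 31.1% and 23.1% of abundant entries. The members' corrected values ran against GC content (Spearman -0.61), while those of abundant entries hardly did (-0.12).

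A set of 14 members was higher in all 4 fits: RPL9, RPL10, RPL26, RPL26L1, RPL30, RPL32, RPL34, RPL35A, RPL36A, RPLP0, RPS15A, RPS27, RPS27A and RPSA. In the same 4 fits 13.6% of abundant entries and 5.9% of all entries were higher, so the members' share is close to that of abundant entries. RPL10, which shapes the peptidyl transferase centre late in assembly, measured 1941, 1842 and 2016 CPM against 2493, 2342 and 2269 CPM, 1.23-fold higher (adjusted p = 0.0016, edgeR; 0.031 after the correction). RPL36A measured 205, 193 and 216 CPM against 258, 227 and 233 CPM. Its log2 fold change was 0.23 as fitted and 0.37 after the correction (edgeR adjusted p = 0.015 and 0.0022). In the uncorrected fit 8 of the 14 were called higher whichever library was left out.

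**Figure D5:**
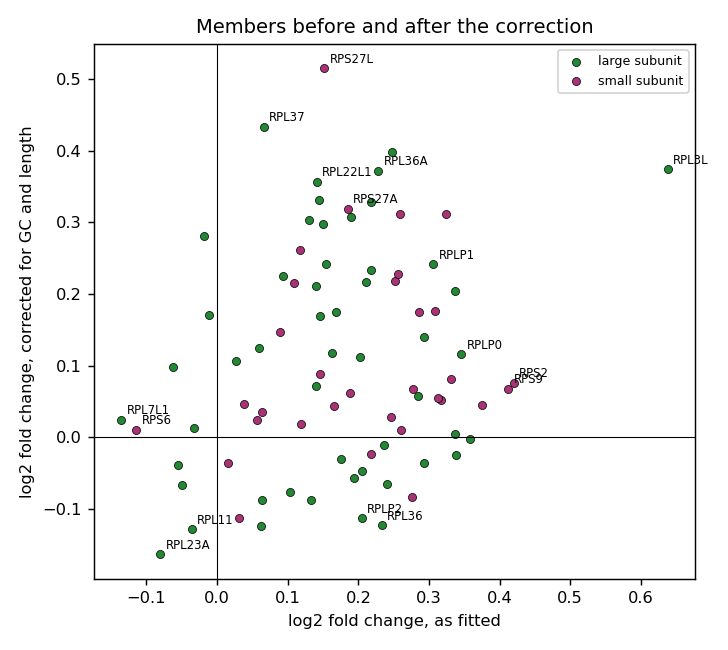
Log2 fold change of each member as fitted (horizontal) and after correction for GC content and transcript length (vertical). RPS2 and RPS9 lie far right and near 0 on the vertical axis, RPS27L and RPL37 lie high on the vertical axis and near 0.15 and 0.07 on the horizontal one, and RPL36 and RPLP2 lie below 0 after the correction.

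Other features of the genes differed from the rest of the table. In 28 members (33.7%) at least 1 snoRNA gene lies within the gene on the same strand, 60 in all, against 1.48% of tested entries in the annotation. Of these 28, 17 were higher and none lower, and of the other 55, 36 were higher and 2 lower, beside 45.7% and 23.1% of abundant entries, so members with and without a snoRNA gene had like shares of higher calls. GENCODE names 1601 pseudogenes after members, of which 176 have an entry in the table. Their counts came to 42.8% of those of RPS2, 22.9% of those of RPL7, 22.1% of those of RPL21, 20.9% of those of RPL9, 17.1% of those of RPL36A and 17.0% of those of RPS27. The handling of reads shared by such copies is not given in the sources used here, so these 6 levels are uncertain. Another entry overlaps 35 members, and in 8 it holds over 10% of the member's counts. LONP1 over RPL36 and LACTB over RPS27L, both on the opposite strand, hold 154% and 148%. Also on the opposite strand, UBE2S over RPL28, GLA over RPL36A and LRR1 over RPS29 hold 55.7%, 33.9% and 27.6%. The strandedness of the libraries is not given in the sources used here, so reads of these partners cannot be told apart.

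Genes that work with the ribosomal proteins did not share one direction, and their counts stand beside 18.3% higher and 19.7% lower of all entries and 45.7% and 23.1% of abundant ones. Of 4 ribosomal components outside the naming rule, all were higher, with FAU, the fusion that gives the small subunit protein eS30, at 1.35-fold (adjusted p = 7e-04, edgeR). RPL36AL, a copy of RPL36A, was 1.15-fold higher (adjusted p = 0.0098, edgeR), and both stayed higher after the correction. Of 19 other TOP mRNAs 5 were higher and 8 lower. EEF2, the translocation factor of elongation, was 1.26-fold higher (adjusted p = 0.00079, edgeR) and lost its call after the correction (log2 fold change 0.079, adjusted p = 0.13). PABPC1, the poly(A)-binding protein, fell by 0.31 in log2 units (edgeR adjusted p = 0.00046) and by 0.26 after the correction (0.00049). After the correction 6 of the 19 were higher and 5 lower. Among 20 regulators of TOP mRNAs 5 were higher and 10 lower, and 5 and 4 after the correction. LARP1, chosen from this list after its values were seen, fell by 0.22 in log2 units (edgeR adjusted p = 0.0024). After the correction LARP1 fell by 0.21 (edgeR adjusted p = 0.0032). RPS6KB1, an S6 kinase gene, fell by 0.66 (adjusted p = 0.00032, edgeR) and by 0.23 after the correction (0.0063). RPS6KB2, the other S6 kinase gene of the list, rose by 0.37 (adjusted p = 0.00063, edgeR). It was not called after the correction (log2 fold change 0.037, edgeR adjusted p = 0.58). TSC2, a brake on mTOR, rose by 0.41 (adjusted p = 0.00039, edgeR) and by 0.30 after the correction (0.00042). The 8 lower of the other TOP mRNAs became 4 without control 1, and 5 without control 2 or overexpressing library 2. The 10 lower regulators became 6 without control 1 or overexpressing library 2.

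Of 60 ribosome assembly factors 13 were higher and 22 lower, and 7 and 15 after the correction. The 13 became 6 without control 2. Those with the smallest p among the falls were HEATR1, UTP20 and MDN1, large factors of early and late assembly, at 0.67-, 0.68- and 0.67-fold (edgeR adjusted p = 0.00018, 0.00019 and 0.00029). Their log2 fold changes went from -0.58, -0.56 and -0.57 to -0.15, -0.15 and -0.29 after the correction (adjusted p = 0.012, 0.019 and 0.0064, edgeR). Of 15 chaperones and importers of ribosomal proteins 4 were higher and 6 lower, and 4 and 2 after the correction. The 4 higher as fitted became 2 without control 1, control 2 or overexpressing library 1. TNPO1, an import receptor, fell by 0.69 in log2 units (edgeR adjusted p = 0.00041) and by 0.15 after the correction (0.047). Of 14 host RNAs of snoRNAs 9 were higher and 1 lower, and 7 and 1 after the correction. The TOP-type hosts GAS5 and ZFAS1 rose 1.27- and 1.28-fold (edgeR adjusted p = 0.00049 and 0.00039).

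The mitochondrial ribosome, encoded apart from the cytosolic one, gave 34 higher and 9 lower of 78 proteins, with a summed level of 5872 ± 65.7 CPM in the controls and 6413 ± 288 CPM with overexpression (SD, n = 3 each, exact permutation p = 0.1). After the correction 15 were higher and 5 lower. The 13 mRNAs of the mitochondrial genome were all lower and held 1.43% ± 0.105 of counts in the controls and 0.842% ± 0.0523 with overexpression (SD, n = 3 each). The part of these other shifts in the share of the ribosomal proteins was not tested.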

How the data were processed

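The authors deposited raw gene counts of 6 libraries, with no normalization. Per the labels' protocols, reads were trimmed with fastp, mapped to GRCh38 with HISAT2 and assembled with StringTie and gffcompare. Versions, the library kit and the counting rules were not given in the sources used here. Members and lists were chosen with earlier results of these data known. Counts were tested with edgeR 4.0.16 (R 4.3.3): TMM scaling, filterByExpr (min.count 10, min.total.count 15; 19101 entries left), the quasi-likelihood test on group alone, and Benjamini-Hochberg adjustment over all entries, with a threshold of 0.05. Sums and ratios were compared by exact two-sided permutation tests. GC content and length came from the GENCODE 44 canonical transcript. Their trends were fitted by natural splines (5 degrees of freedom) on entries at a log2 CPM of 1 or more on average and entered as offsets. The test was checked on simulated data with 200 changed genes, each changed by at least 1.5-fold, and with a trend in GC content but none in length. Far more entries were called in the real data, and nearly all members changed by less. The check therefore does not cover the calls of the members. Library totals were 84531039 to 92780032, so counting error is small for all members but the lowest. Named members were fixed by role, as paralogue copies with their parents, as the 6 largest called rises and falls per subunit, as the highest and lowest per kilobase, and as those whose call reversed. From each other list up to 3 genes per direction were named by p, and LARP1 after its values were seen, as were the other members named in counts. Some genes that the rule names are not reported here. Alternatives used DESeq2 1.42.0, limma-voom (limma 3.58.1), other scalings and filters, a replicate block and left-out libraries. The correction without the members and that by coding sequence were chosen after seeing the data.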

Additional observations from a re-analysis of the deposited data

How the results depend on the processing

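Read depth limits few members: RPL3L, under 1 CPM, is the thinnest. The counts of higher members stayed within 1.5 times under other scalings, filters and tools. The GC and length correction gave 4 lower of the large and 11 higher of the small subunit, 2203 higher and 2118 lower of all entries, and 45 and 32 of the pathway lists. Fitted without the members it gave 3, 11, 2212, 2102, 46 and 31. By coding sequence it gave 19 higher and 0 lower of the large and 2 lower of the small subunit, 2464 lower entries and 25 lower list genes. GC content alone gave 0 lower in either subunit, 2461 lower entries and 23 lower list genes. Library size alone gave 5 lower of the large subunit, and DESeq2 size factors 0 of the small. Leaving out 1 library gave 17 (without control 2) or 21 (without control 1) to 31 higher and 0 to 1 lower of the large subunit, and 17 to 22 higher and 0 lower of the small. Across these fits the log2 fold change of RPL39L ran from -0.013 (without control 1) to 0.11, and that of RPL7 from -0.049 to 0.028 (without control 1), with 0.019 without overexpressing library 2. After the corrections the cause of a changed call was not tested.

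The replicate block gave 21 higher and 0 lower of the large and 0 lower of the small subunit. With GC and length correction the block gave 19 higher and 2 lower of the large and 11 higher and 0 lower of the small subunit, 1744 higher and 1611 lower entries, and 38 and 24 list genes. Same-numbered libraries deviated from their group means with correlations of -0.073, -0.26 and -0.44 over 10091 genes. The other pairings ran from -0.15 (control 2 with overexpressing library 1) to 0.36 (control 2 with overexpressing library 3). Deviations from a mean of 3 balance out within each group. These values therefore cannot decide whether equal numbers mark pairs.

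Log2 fold changes reversed as follows, in the order of GC and length correction, that with the replicate block, and that fitted without the members. RPL3 gave -0.047, -0.047 and -0.047, and RPL8 gave -0.025, -0.026 and -0.024. RPL7L1 gave 0.024, 0.024 and 0.026. With GC content alone as the last value, RPL39L gave -0.12, -0.12, -0.12 and -0.014, and RPS6 gave 0.010, 0.0089, 0.013 and 0.14. With GC content alone and then the coding sequence as the last values, RPL22 gave 0.099, 0.099, 0.10, 0.21 and 0.079, and RPL36 gave -0.12, -0.12, -0.12, -0.038 and -0.096. RPL7 gave 0.17, 0.17, 0.17, 0.32 and 0.21, and RPLP2 gave -0.11, -0.11, -0.11, -0.022 and -0.045. RPL5 turned to 0.089 with GC content alone and to 0.15 by coding sequence.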
